A study of Macaca mulatta with 20 samples.

Results

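Collagen chains are the polypeptides that wind together into the triple helices of the extracellular matrix, and their genes were measured here in the rhesus macaque corpus luteum across its lifespan. The members were all genes whose platform symbol has the form COL, a number, A and a number, taken from probe sets with that symbol alone. Where a gene had several, the probe set of highest mean level stood for it. The rule found 35 of 14132 named genes, on 60 of the 52707 probe sets tested. COL4A1 and COL4A2, the main chains of most basement membranes, have no probe set with that symbol alone and were not analysed here. No measured value entered the choice of genes, although it chose the probe set.

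The series holds 20 corpora lutea of female rhesus macaques with normal menstrual cycles, 1 Affymetrix array each, with 4 biological replicates at each of 5 stages. The stages, in days from the midcycle surge of LH, are early (days 3 to 5, when the gland forms), mid (days 7 to 8, peak progesterone output), mid-late (days 10 to 12), late (days 14 to 16, when progesterone secretion stops) and very-late (days 18 to 19, at menses, when the tissue is dismantled). No animal was treated, and stage is the sole factor of the design. Values are RNA levels of whole tissue on a log2 scale, so a difference of 1 unit is a 2-fold difference. In such bulk samples, fewer cells of a type and less RNA per cell cannot be told apart.

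Collagen chains fall into classes by the structure they build. Fibrillar collagens such as types I, III and V form the banded fibrils that give a tissue its strength. Type IV forms the sheet of basement membranes, the multiplexins XV and XVIII sit where basement membranes meet the stroma, and type VI forms beaded filaments around cells. FACIT collagens decorate fibril surfaces, and transmembrane collagens stay in the cell membrane. The corpus luteum is densely vascular, so much of its matrix lies around blood vessels and steroidogenic cells.

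Arrays had medians of 3.88 to 3.98. Probe sets for viral genomes, which have no target here, had means with a 95th percentile of 4.29, used below as the background level. The steroidogenic markers of the gland were present: their summed level was 11.3 to 12.5 in very-late arrays, against 14.3 to 14.7 in late arrays. Some arrays stood apart. The GAPDH signal was 2.76 log2 units higher at its 3' end than at its 5' end in very-late replicate 1, against 0.906 to 1.87 in the others. The array least correlated with the rest of its stage was very-late replicate 2, at 0.973. In 7 arrays (those of the mid stage, number 4 of the early, number 1 of the mid-late and number 2 of the very-late stage) 4 mitochondrial probe sets averaged 6.06 to 8.50, against 12.6 to 13.6 in the other 13. No label names a batch that matches this split. Collagen calls lost without very-late replicates 1 and 2, or in a fit on those 13 arrays, are given below with their values.

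Of the 35 collagen genes, 12 were at background, with every stage mean at or under 4.29. These were COL24A1, COL27A1, COL4A3, COL4A4, COL9A1, COL9A3, COL19A1, COL20A1, COL8A2, COL10A1, COL25A1 and COL28A1. Their stage means lay between 2.91 and 4.20, and the stage means of a single gene were at most 0.27 log2 units apart. COL9A1, COL9A3 and COL10A1, of types IX and X, are known from cartilage. The remaining type IX chain, COL9A2, had stage means of 4.24 to 4.44, around the background level, and passed no test. The other 23 genes had at least 1 stage mean above background.

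Across the 5 stages, 11 of the 35 collagen genes changed (limma's F test, adjusted p under 0.05 over all probe sets), beside 33.6% of all named genes. They were the type I chains COL1A1 and COL1A2, the type V chains COL5A2 and COL5A3, both multiplexins COL15A1 and COL18A1, COL6A3, the FACIT chains COL12A1 and COL21A1, the transmembrane COL13A1 and COL7A1. By class, that was 4 of 10 fibrillar genes, 0 of 4 type IV genes, 2 of 2 multiplexins, 1 of 3 type VI genes, 2 of 9 FACIT genes, 0 of 2 short chain genes, 1 of 2 transmembrane genes and 1 of 3 others. These counts cover measured genes only. Measured were 10 of 11 listed fibrillar chains, 4 of 6 of type IV and 3 of 5 of type VI and related filaments. So were 9 of 10 FACIT, 2 of 3 short chain and 2 of 4 transmembrane chains. Of the 11, 9 had their lowest mean at the very-late stage. The highest mean fell at the early stage for 6 of them. The exceptions to a very-late minimum were COL6A3, lowest at mid-late, and COL7A1, lowest at early and highest at very-late. Stages of highest and lowest means were not counted over all named genes. Of the later stages, very-late also had the most named genes called against early tissue (28.9%).

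Between adjacent stages, the most calls in the family lay at the step from late to very-late, when the gland breaks down. In very-late against late tissue, 2 of the 35 genes rose and 7 fell, beside 21.4% of all named genes called in either direction (10.2% higher and 11.2% lower). The median difference of the 35 was -0.07 log2 units, against 0.01 over all named genes. The 7 that fell were COL1A1, COL1A2, COL5A2, COL15A1, COL12A1, COL21A1 and COL13A1, and the 2 that rose were COL6A3 and COL7A1. The share of members called was 25.7%, close to that of all named genes.

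**Figure D1:**
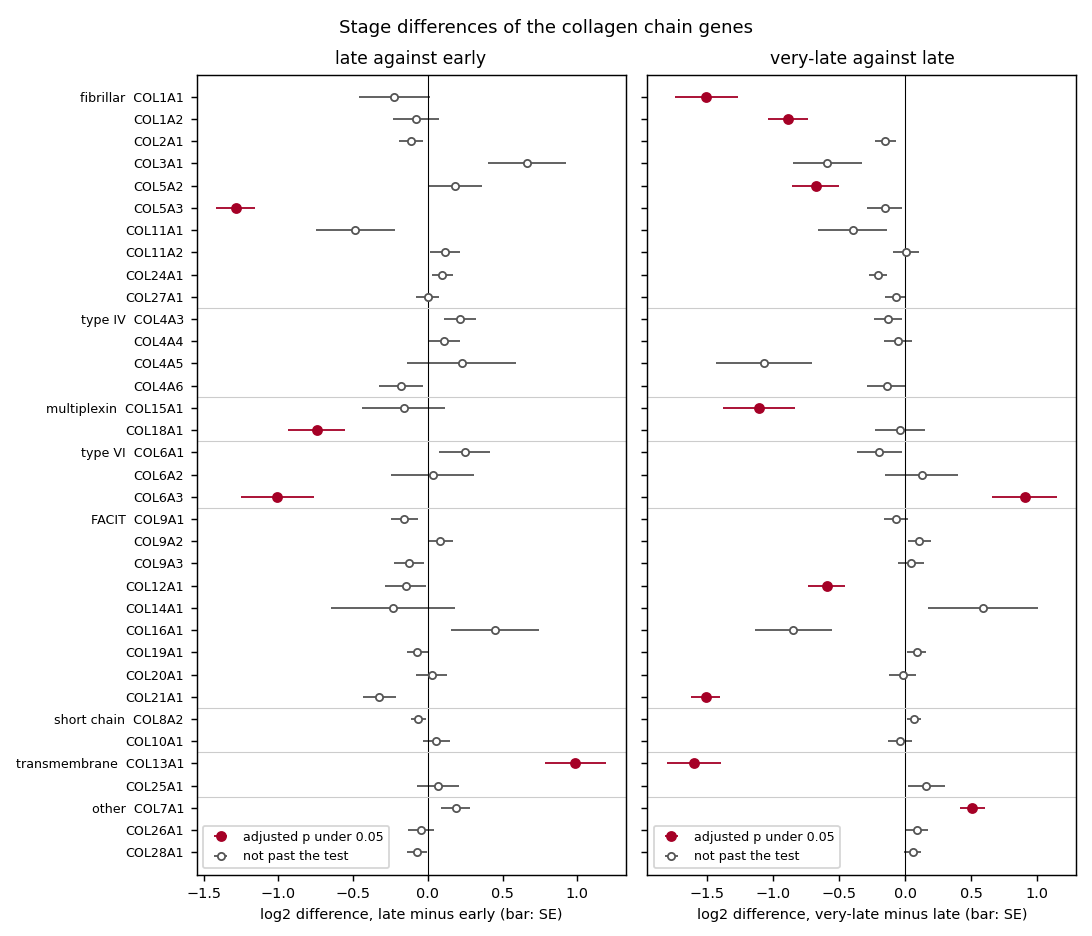
Log2 difference of each of the 35 collagen genes, late minus early on the left and very-late minus late on the right, with bars for the SE of the fit and filled points for adjusted p under 0.05. The right panel has 7 filled points left of 0 and 2 right of it, and the left panel has 3 filled points left of 0 and 1 right of it.

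COL1A1 and COL1A2 encode the chains of type I collagen, the main fibril protein of connective tissue. COL1A1 was at 12.27, 10.94, 11.48 and 11.39 in the early arrays, 11.23, 11.11, 10.66 and 10.91 in mid, 10.84, 10.95, 10.98 and 11.18 in mid-late, 11.52, 11.05, 11.21 and 11.40 in late, and 9.47, 9.64, 10.51 and 9.54 in very-late. The stages up to late overlapped, and all 4 very-late arrays lay below every other array. COL1A1 fell 2.84-fold in very-late against late tissue (log2 difference -1.51 ± 0.24 SE, limma adjusted p = 0.000234). Against early tissue the fall was 3.32-fold (-1.73 ± 0.24, adjusted p = 3.66e-05).

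COL1A2 was at 12.79, 11.86, 12.27 and 12.24 in early arrays, 12.21, 12.08, 11.93 and 12.16 in mid, 12.05, 11.95, 12.11 and 12.21 in mid-late, 12.51, 12.02, 12.07 and 12.24 in late, and 11.33, 11.22, 11.62 and 11.12 in very-late. Here too, no very-late array reached the lowest array of any other stage. COL1A2 fell 1.85-fold in very-late against late tissue (-0.89 ± 0.15, adjusted p = 0.000532). The gap between the type I chains within an array, COL1A1 minus COL1A2, was -1.53 ± 0.31 in very-late and -0.91 ± 0.08 in late arrays (SD, n = 4 each), with no overlap. This pair was chosen after its values were seen and has no test. Both falls were called in all 20 fits that left out 1 array. A second probe set of COL1A2 fell by 1.22 (adjusted p = 5.61e-05). The second probe set of COL1A1 was at background in every stage, with means of 3.57 to 3.66.

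COL3A1 encodes type III collagen, which copolymerises with type I in soft tissues. It was at 6.92, 6.77, 7.24 and 6.97 in early arrays, 7.73, 6.0, 6.82 and 7.22 in mid, 7.15, 7.27, 7.69 and 7.44 in mid-late, 7.50, 7.70, 7.72 and 7.63 in late, and 6.74, 7.33, 7.41 and 6.70 in very-late. The late arrays lay close together and above the very-late ones, but the mid arrays alone spanned from below to above all other arrays. No difference passed the test (F test adjusted p = 0.187). In very-late against late tissue the difference was -0.59 ± 0.26 (adjusted p = 0.163).

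**Figure D2:**
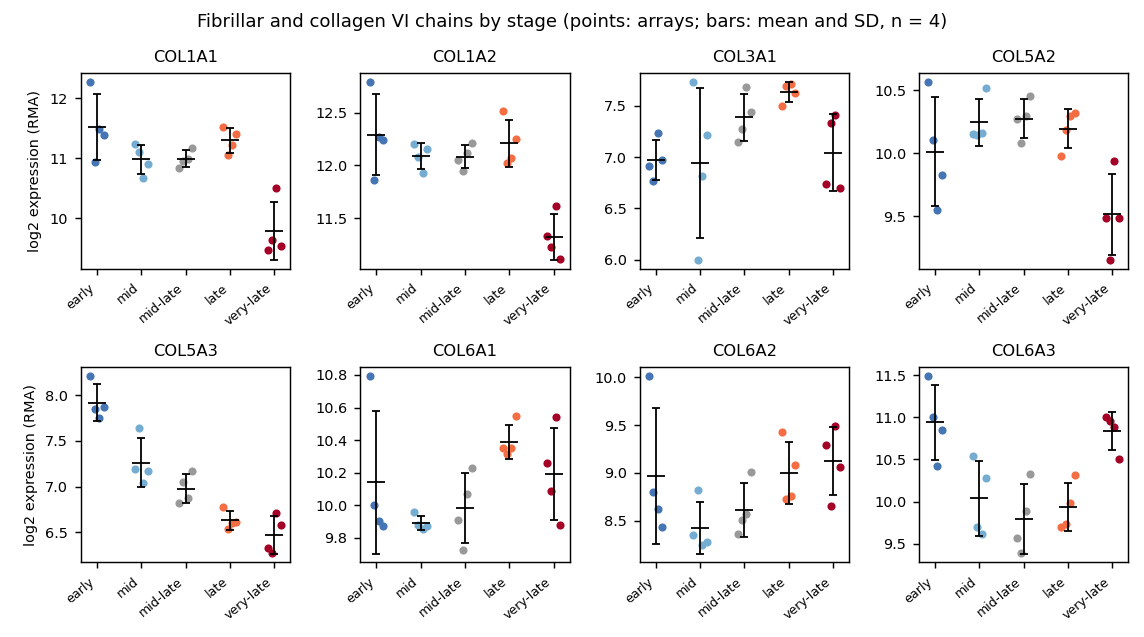
Log2 expression of 5 fibrillar and 3 type VI chains by stage, with a point per array and bars for the mean and SD of the 4 arrays. COL1A1 and COL1A2 drop at the very-late stage, COL5A3 steps down after the early stage, and COL6A3 is high at the early and very-late stages and lower between them.

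Type V collagen is a minor fibril component that nucleates type I fibrils and limits their width. COL5A3 was at 8.21, 7.85, 7.75 and 7.86 in early arrays, 7.19, 7.64, 7.04 and 7.17 in mid, 6.82, 7.05, 6.87 and 7.17 in mid-late, 6.77, 6.54, 6.60 and 6.61 in late, and 6.33, 6.28, 6.71 and 6.58 in very-late. Every array after the early stage lay below all early arrays. COL5A3 was lower than in early tissue at each later stage: by 0.66 ± 0.13 at mid (adjusted p = 0.0369), 0.94 at mid-late (adjusted p = 0.00144), 1.29 at late (adjusted p = 2.27e-05) and 1.44 at very-late (adjusted p = 3.08e-07). These comparisons share the early arrays. The step from late to very-late was not called (-0.16 ± 0.13, adjusted p = 0.538). The mid difference was lost in 12 of the 20 fits without 1 array, namely any early array, mid replicates 1, 3 or 4, mid-late replicates 2 or 3 and late replicates 2, 3 or 4, with adjusted p up to 0.139 and values between -0.71 and -0.56. It was also lost with the replicate number as a block (adjusted p = 0.0753) and with a term for the mitochondrial split (-0.52, adjusted p = 0.181).

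COL5A2, a chain of the main type V trimer, had means of 10.01 at early, 10.24 at mid, 10.27 at mid-late, 10.20 at late and 9.51 at very-late. It fell by 0.68 ± 0.18 in very-late against late tissue (adjusted p = 0.0154). Without very-late replicate 2 the difference was -0.56 (adjusted p = 0.058), and without very-late replicates 1 and 2 it was -0.48 (adjusted p = 0.202). Within the 13 arrays with high mitochondrial signal it was -0.56 (adjusted p = 0.103). Its 4 probe sets did not move together. A second one fell with it by 0.50 (adjusted p = 0.0451), whereas another was lower at late than at early by 0.68 (adjusted p = 0.00241), as COL5A3 was, and differed by 0.23 in very-late against late tissue (adjusted p = 0.275). The last passed no test, and the mean of the 4 differed by -0.17 in very-late against late tissue (adjusted p = 0.107) and by -0.24 in late against early tissue (adjusted p = 0.0341). In this genome COL5A2 and COL3A1 are neighbours with 0 protein-coding genes between them, yet the levels of COL3A1 passed no test.

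COL2A1, COL11A1 and COL11A2 encode chains of the fibrils known from cartilage. COL11A1, a chain of type XI collagen, had means of 4.52, 4.43, 4.16, 4.03 and 3.63 from the early to the very-late stage, and differed by -0.89 ± 0.26 in very-late against early tissue (adjusted p = 0.0230). Its means from mid-late on were under background, so this difference has no exact size. COL2A1, the type II chain, fell by 0.27 ± 0.08 in the same comparison (adjusted p = 0.0248). Neither passed the F test, and both calls were lost without very-late replicates 1 and 2 (COL11A1 at -0.97, adjusted p = 0.0645, and COL2A1 at -0.24, adjusted p = 0.122). COL11A2, another type XI chain, had stage means of 5.16 to 5.28 and passed no test. The COL11A1 call was lost without early replicate 1 (-0.66, adjusted p = 0.0889) or very-late replicate 3 (-0.83, adjusted p = 0.0598). The COL2A1 call was lost without early replicate 3 (-0.20, adjusted p = 0.10) or very-late replicate 1 (-0.22, adjusted p = 0.0863).

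Type VI collagen is a trimer of COL6A1, COL6A2 and COL6A3, whose beaded filaments link cells to the fibrillar matrix. COL6A3 had its highest means at the early and very-late stages. It was at 11.49, 11.00, 10.42 and 10.85 in early arrays, 10.54, 9.70, 9.62 and 10.28 in mid, 9.57, 9.39, 9.89 and 10.32 in mid-late, 9.69, 9.74, 9.98 and 10.32 in late, and 11.01, 10.96, 10.88 and 10.51 in very-late. The very-late arrays all lay above the late ones and within the range of the early ones. COL6A3 rose 1.87-fold in very-late against late tissue (0.91 ± 0.25, adjusted p = 0.0175). It was lower than in early tissue at mid-late (-1.15 ± 0.25, adjusted p = 0.0138) and at late (-1.01 ± 0.25, adjusted p = 0.0161). In very-late against early tissue it differed by -0.10 (adjusted p = 0.851).

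The rise of COL6A3 was near the threshold. Without late replicate 1 it was 0.83 (adjusted p = 0.0510), without late replicate 2 it was 0.84 (adjusted p = 0.0542), and without very-late replicates 1 and 2 it was 0.76 (adjusted p = 0.163). The late fall was -0.82 without early replicate 1 (adjusted p = 0.0508) and -0.94 without late replicate 2 (adjusted p = 0.0515). Within the 13 arrays with high mitochondrial signal, the rise was 0.87 (adjusted p = 0.0529) and the mid-late fall was -1.10 (adjusted p = 0.0620).

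The representative probe sets of both partner chains did not pass the F test. COL6A1 was at 10.79, 10.00, 9.90 and 9.87 in early arrays, 9.96, 9.88, 9.86 and 9.88 in mid, 9.91, 9.72, 10.07 and 10.23 in mid-late, 10.35, 10.31, 10.35 and 10.55 in late, and 10.26, 10.09, 10.54 and 9.88 in very-late. Apart from early replicate 1, the early arrays lay below the late ones. Its F test gave an adjusted p of 0.215, and in very-late against late tissue it differed by -0.20 ± 0.17 (adjusted p = 0.561). Of its other 2 probe sets, 1 passed the F test (adjusted p = 0.0200), with means of 7.65 at early, 7.48 at mid, 7.82 at mid-late, 8.16 at late and 8.10 at very-late.

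COL6A2, which lies next to COL6A1 with 0 protein-coding genes between them, was at 10.01, 8.80, 8.62 and 8.44 in early arrays, 8.36, 8.83, 8.25 and 8.28 in mid, 8.36, 8.50, 8.57 and 9.01 in mid-late, 9.43, 8.73, 8.76 and 9.08 in late, and 9.30, 8.66, 9.49 and 9.06 in very-late. Early replicate 1 was again the highest, and the stages overlapped. The F test gave an adjusted p of 0.269. Within arrays, COL6A3 minus COL6A1 was 0.64 ± 0.23 in very-late and -0.46 ± 0.19 in late arrays, and 0.80 ± 0.23 in early arrays (SD, n = 4 each). The late arrays overlapped neither of the other stages in this difference, which was chosen after its values were seen and has no test.

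The 4 measured type IV genes passed no test in any comparison in the main fit, on all 20 arrays and all probe sets. COL4A3 and COL4A4 were at background. COL4A5, best known from the basement membrane of the kidney filter, had means of 6.54 at early, 6.12 at mid, 6.72 at mid-late, 6.76 at late and 5.69 at very-late (F test adjusted p = 0.143). Very-late replicate 2 stood at 4.22, against 5.98 to 6.33 in the other very-late arrays, and all 4 were below the late arrays at 6.60 to 7.00; these array values were chosen after they were seen. The very-late minus late difference was -1.07 ± 0.37 (adjusted p = 0.0620). Without very-late replicate 2 it was -0.58 (adjusted p = 0.174), whereas without very-late replicate 1 it was -1.29 and passed (adjusted p = 0.0348), as it did without very-late replicate 4 (-1.25, adjusted p = 0.0415). On all 20 arrays the same difference passed with the replicate number as a block (limma adjusted p = 0.0398). It also passed without probe sets whose stage means were all under 3.42 (adjusted p = 0.0493). COL4A6 had stage means between 4.49 and 4.81.

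Both multiplexins passed the F test. COL15A1, a chain of the zone under vessel and muscle basement membranes, was at 9.46, 9.08, 9.58 and 8.99 in early arrays, 8.62, 8.70, 8.84 and 9.04 in mid, 8.78, 9.42, 8.90 and 9.27 in mid-late, 9.22, 8.88, 9.22 and 9.14 in late, and 7.95, 6.89, 8.46 and 8.71 in very-late. The very-late arrays were spread widely, and all lay under the late arrays. COL15A1 fell 2.16-fold in very-late against late tissue (-1.11 ± 0.28, adjusted p = 0.00983). A second probe set fell by 0.83 (adjusted p = 0.00769). Much of the size came from very-late replicate 2, without which the difference was -0.74 (adjusted p = 0.0145). Without very-late replicates 1 and 2 it was -0.53 (adjusted p = 0.108).

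COL18A1, whose cleavage releases the vessel-growth inhibitor endostatin, was at 8.22, 7.44, 8.21 and 8.17 in early arrays, 8.37, 8.16, 7.74 and 7.95 in mid, 7.39, 8.01, 7.14 and 7.16 in mid-late, 7.46, 7.26, 7.18 and 7.14 in late, and 7.12, 7.25, 7.39 and 7.14 in very-late. It was high at early and mid and low at late and very-late, with early replicate 2 among the low values and mid-late replicate 2 among the high ones. COL18A1 fell 1.68-fold in late against early tissue (-0.75 ± 0.19, adjusted p = 0.0224), although the arrays of these stages overlapped, and 1.72-fold in very-late against early tissue (-0.78 ± 0.19, adjusted p = 0.00654). The late call was lost when early replicate 1, 3 or 4 was left out, and likewise for late replicate 2, 3 or 4 (differences from -0.74 to -0.67, adjusted p up to 0.0760). Without very-late replicates 1 and 2 the very-late difference was -0.74 (adjusted p = 0.0501). Within the 13 arrays with high mitochondrial signal, the late difference was -0.69 (adjusted p = 0.0908) and the very-late one -0.74 (adjusted p = 0.0584).

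The lower level in late against early tissue rests on this 1 of the 2 COL18A1 probe sets. The second differed by -0.08 in that comparison (adjusted p = 0.860), with means of 5.75 at early, 5.67 at mid, 5.88 at mid-late, 5.67 at late and 5.09 at very-late. It fell by 0.58 in very-late against late tissue (adjusted p = 0.00932), the step at which COL15A1 was also called. Which transcripts the probe sets detect was not tested.

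**Figure D3:**
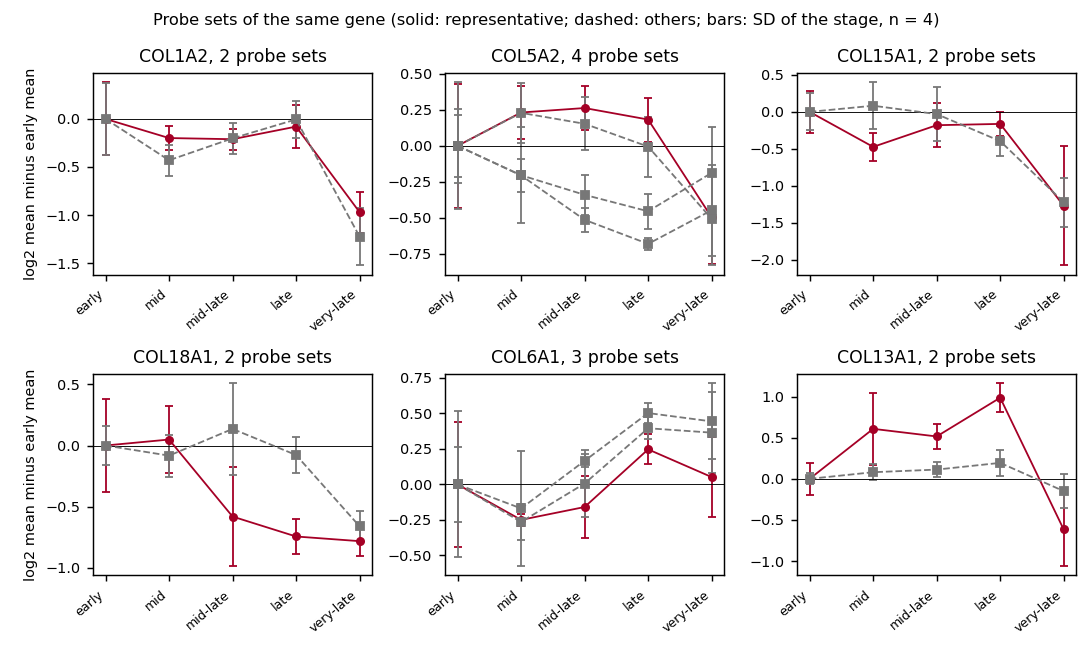
Stage means of each probe set minus its own early mean, in log2 units, for 6 collagen genes, with the representative solid, the others dashed and bars for the SD of 4 arrays. The probe sets of COL1A2 and COL15A1 end at similar very-late differences, while those of COL5A2 and COL18A1 part at the mid-late and late stages.

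Among the FACIT collagens, COL21A1 had the smallest adjusted p. COL21A1 is a fibril-associated chain known from vessel walls. It was at 7.18, 6.83, 6.64 and 6.89 in early arrays, 7.27, 7.30, 7.40 and 7.05 in mid, 7.12, 7.14, 7.05 and 7.28 in mid-late, 6.43, 6.53, 6.73 and 6.56 in late, and 5.01, 5.29, 4.86 and 5.03 in very-late. The very-late arrays stood more than 1 log2 unit below all others. COL21A1 fell 2.85-fold in very-late against late tissue (-1.51 ± 0.11, adjusted p = 4.77e-08) and 3.57-fold against early tissue (-1.84 ± 0.11, adjusted p = 3.04e-09). Both calls held in all 20 fits without 1 array. In late against mid-late tissue the difference was -0.59 (adjusted p = 0.084), and without very-late replicate 2 it was called (adjusted p = 0.0499).

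COL12A1, a FACIT chain that coats type I fibrils, passed the F test. Its means were 7.87 at early, 7.28 at mid, 7.33 at mid-late, 7.72 at late and 7.12 at very-late. The late minus mid-late difference of 0.38 was not called (adjusted p = 0.591). COL12A1 fell by 0.59 ± 0.14 in very-late against late tissue (adjusted p = 0.00647), and by 0.74 ± 0.14 in very-late against early tissue (adjusted p = 0.000732). Without very-late replicates 1 and 2 the very-late minus late difference was -0.52 (adjusted p = 0.0696). COL12A1 was also lower at mid-late than at early by 0.53 ± 0.14 (adjusted p = 0.0396). That call was lost when early replicate 1, 3 or 4, mid replicate 3, mid-late replicate 1, 2 or 3, or late replicate 3 was left out, with adjusted p up to 0.131, and within the 13 arrays of high mitochondrial signal (-0.35, adjusted p = 0.274). COL14A1 and COL16A1, other FACIT chains above background, had stage means of 6.23 to 7.22 and 6.19 to 7.04, and neither passed a test.

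**Figure D4:**
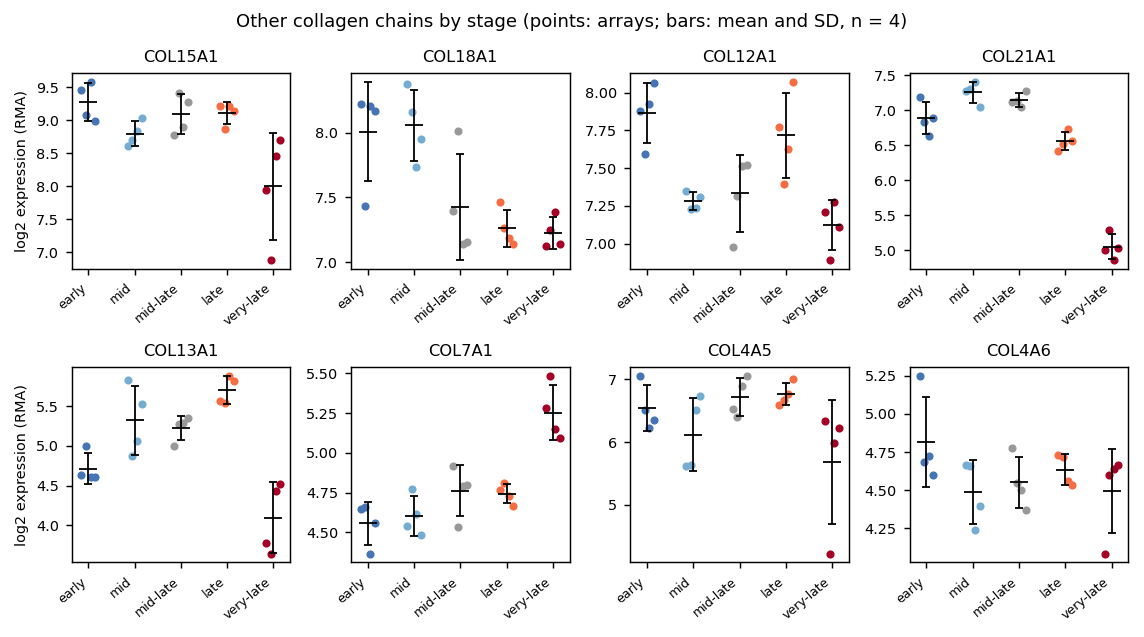
Log2 expression of 8 chains outside the fibrillar and type VI classes by stage, with a point per array and bars for the mean and SD of the 4 arrays. COL21A1 and COL13A1 are lowest at the very-late stage, COL7A1 is highest there, and the mean of COL18A1 is lower from the mid-late stage on.

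COL13A1 was the only member that rose in late against early tissue. It encodes a transmembrane collagen of cell adhesion sites. It was at 4.63, 5.00, 4.60 and 4.61 in early arrays, 5.83, 4.87, 5.06 and 5.53 in mid, 5.00, 5.27, 5.29 and 5.35 in mid-late, 5.56, 5.54, 5.88 and 5.82 in late, and 3.78, 3.65, 4.44 and 4.52 in very-late. The late arrays lay above all early arrays, and the very-late arrays below all of both. COL13A1 rose 1.98-fold in late against early tissue (0.99 ± 0.21, adjusted p = 0.00592) and fell 3.04-fold in very-late against late tissue (-1.60 ± 0.21, adjusted p = 2.61e-05). Very-late replicates 1 and 2 were under the background level of 4.29, so the size of that fall is limited by background. A second probe set, with every stage mean at background, differed by -0.34 (adjusted p = 0.0198), which has no exact size. Against early tissue the very-late difference was -0.62 (adjusted p = 0.0436), and it was not called in 12 of 20 fits, those lacking any early array, number 2, 3 or 4 of the mid-late or of the late arrays, or number 1 or 2 of the very-late arrays (adjusted p up to 0.144). Without very-late replicates 1 and 2 it was -0.23 (adjusted p = 0.559), and within the 13 arrays it was -0.50 (adjusted p = 0.0831).

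COL7A1, the chain of the anchoring fibrils known from skin, was called higher at the very-late stage. Its means were 4.56 at early, 4.60 at mid, 4.76 at mid-late, 4.74 at late and 5.25 at very-late, low but above background. COL7A1 rose by 0.51 ± 0.10 in very-late against late tissue (adjusted p = 0.00114) and by 0.69 ± 0.10 against early tissue (adjusted p = 3.68e-05). Its second probe set was at background and not called. COL26A1, also in the group of other chains, did not pass a test.

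Set against the early stage, lower calls outnumbered higher ones, both among the collagen genes and over all named genes from mid to very-late. In mid against early tissue, 0 of 35 rose and 1 fell (COL5A3), beside 0.594% of all named genes called and 0.347% lower. In mid-late against early tissue, 0 rose and 3 fell (COL5A3, COL6A3 and COL12A1), beside 6.31%, with 4.56% lower. In late against early tissue, 1 rose (COL13A1) and 3 fell (COL5A3, COL18A1 and COL6A3), beside 12.3%, with 8.07% lower and 4.22% higher. In very-late against early tissue, 1 rose (COL7A1) and 10 fell, beside 28.9% called in either direction, 11.9% higher and 17% lower. The 10 were COL1A1, COL1A2, COL2A1, COL5A3, COL11A1, COL15A1, COL18A1, COL12A1, COL21A1 and COL13A1. From mid-late on, the shares of collagen genes called, 8.57%, 11.4% and 31.4%, were near those of all named genes. Fibrillar genes made up 5 of the 10, with a class median of -0.38 against -0.01 over all named genes. The count in late against early tissue was 2 without late replicate 2.

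The steps from mid to mid-late and from mid-late to late had almost no calls on the whole array. In mid-late against mid tissue limma called 0 of 35 genes, beside 0.0142% of all named genes; at an unadjusted p under 0.05 there were 0 higher and 3 lower. In late against mid-late tissue it called 0 of 35, beside 0.00708%, with 3 higher and 2 lower at an unadjusted p under 0.05.

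Many genes for the making of collagen fell at the same step from late to very-late. Proline and lysine residues of nascent chains are hydroxylated in the endoplasmic reticulum, where chaperones help the helix fold. Of 16 measured genes for hydroxylation and folding, 0 rose and 9 fell in very-late against late tissue, with a median of -0.63 against 0.01 over all named genes. Of all named genes, 10.2% were called higher and 11.2% lower in this comparison. With very-late replicates 1 and 2 left out, 0 rose and 7 fell, beside 6.92% and 7.65% of all named genes, and the calls of P4HA2 and FKBP10 were lost. On the 13 arrays 0 rose and 8 fell, beside 8.58% and 9.84% of all named genes. P3H2, a prolyl 3-hydroxylase, was at 8.27, 7.11, 7.96 and 8.50 in very-late arrays, against 10.33, 10.77, 10.56 and 10.67 in late arrays. The very-late arrays were all far below the late ones, and P3H2 fell by 2.62 ± 0.22 (adjusted p = 2.5e-07). PLOD2, a lysyl hydroxylase that sets the type of cross-link, was at 7.41, 6.59, 7.29 and 6.76 in very-late arrays, against 8.78, 9.10, 9.30 and 8.93 in late arrays. It fell by 2.01 ± 0.23 (adjusted p = 6.52e-06). P4HA1, a prolyl 4-hydroxylase subunit, fell by 1.34, and the prolyl isomerase PPIB by 0.84.

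In late against early tissue 2 of these 16 genes rose and 4 fell, beside 4.22% of all named genes called higher and 8.07% lower. PLOD2 rose by 1.05 ± 0.23 (adjusted p = 0.00764) and P4HA1 by 1.05 ± 0.26 (adjusted p = 0.0201), while P4HA2, PLOD3, FKBP10 and P4HB fell. The P4HA1 rise was 0.98 without early replicate 3 and 0.94 without early replicate 4, each with an adjusted p of 0.0666. P4HA2, the alternative prolyl 4-hydroxylase subunit, fell by 1.02 ± 0.19 (adjusted p = 0.00283). In very-late against early tissue, 1 of the 16 rose and 10 fell, beside 11.9% and 17% of all named genes.

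Outside the cell, propeptides are clipped off and fibrils are cross-linked. Of 12 measured genes for these steps, 1 rose and 6 fell in very-late against late tissue (median -0.64), beside 10.2% and 11.2% of all named genes. Without very-late replicates 1 and 2 the counts were 1 and 5, beside 6.92% and 7.65% of all named genes, and the call of LOXL1 was lost. On the 13 arrays the counts were 1 and 6, beside 8.58% and 9.84%. ADAMTS3, a procollagen N-propeptidase, was at 3.72, 3.52, 3.82 and 5.06 in very-late arrays, against 6.54, 6.95, 7.07 and 6.83 in late arrays. In 3 of the very-late arrays it was under the background level, and it fell by 2.82 ± 0.29 (adjusted p = 2.39e-06). TLL1, a C-propeptidase of the tolloid family, was at 3.31, 2.91, 3.12 and 3.21 in very-late arrays, against 3.48, 6.15, 6.20 and 6.31 in late arrays. All very-late arrays and late replicate 1 were under the background level, so the fitted difference of -2.40 (adjusted p = 0.00171) has no exact size. Without late replicate 1 it was -3.08. ADAMTS2, a second N-propeptidase, fell by 1.60 ± 0.31 (adjusted p = 0.00145). PCOLCE2, an enhancer of C-propeptide removal, fell by 1.23, and LOXL1 and LOXL2 of the lysyl oxidase family also fell. The riser was TGM2, a transglutaminase that joins proteins through glutamine and lysine side chains, at 6.53, 8.85, 7.06 and 7.24 in very-late arrays, against 5.80, 5.91, 5.73 and 5.97 in late arrays (1.57 ± 0.31, adjusted p = 0.00151). In late against early tissue, 1 of the 12 rose and 2 fell (PCOLCE2, by 1.35, and LOXL2), beside 4.22% and 8.07% of all named genes. The riser was TLL1, whose early arrays, at 3.14 to 3.58, were also under background.

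Several genes for collagen cleavage rose at the step where synthesis genes fell. Of 10 measured, 4 rose and 0 fell in very-late against late tissue (median 0.23), beside 10.2% and 11.2% of all named genes. The same 4 were called without very-late replicates 1 and 2, beside 6.92% and 7.65% of all named genes. They were also called on the 13 arrays, beside 8.58% and 9.84%. CTSK, the lysosomal protease that cuts within the triple helix, was at 12.43, 12.02, 12.45 and 12.34 in very-late arrays, against 9.09, 9.29, 9.48 and 10.94 in late arrays. It rose by 2.61 ± 0.40 (adjusted p = 0.000168), after a rise of 1.91 ± 0.40 in late against early tissue (adjusted p = 0.00612). MMP9, a gelatinase, was at 11.02, 10.88, 11.29 and 11.33 in very-late arrays, against 7.75, 9.20, 9.54 and 10.29 in late arrays, and rose by 1.94 ± 0.43 (adjusted p = 0.00466). MMP14, a membrane-bound collagenase, rose by 1.24 ± 0.18 (adjusted p = 9.71e-05). PEPD, which splits the proline dipeptides left from collagen breakdown, rose by 0.89 ± 0.12 (adjusted p = 3.55e-05). The secreted collagenases MMP8 and MMP13 were at background in every stage. In late against early tissue, 2 of the 10 rose (MMP9 and CTSK) and 1 fell, beside 4.22% and 8.07% of all named genes. The 1 that fell was MMP1, another secreted collagenase, by 1.23. It was above background only in early replicate 4, at 6.13, so this difference has no exact size.

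**Figure D5:**
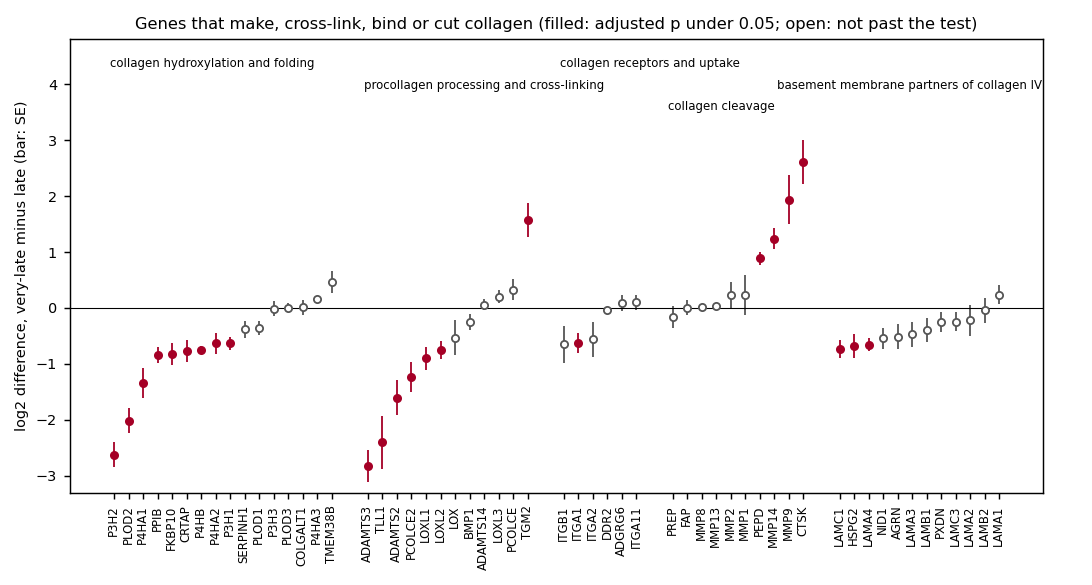
Log2 difference, very-late minus late, of the 56 measured genes that modify, process, bind or cut collagen or share its basement membranes, with bars for the SE of the fit and filled points for adjusted p under 0.05. Filled points lie below 0 in the synthesis and processing lists, except TGM2, and above 0 in the cleavage list.

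Neither collagen receptors nor basement membrane partners were called in a share far from the 21.4% of all named genes in very-late against late tissue. Among 6 measured collagen receptors, 1 fell and 0 rose (16.7%): ITGA1, the collagen-binding integrin chain, by 0.62 ± 0.18 (adjusted p = 0.0238). That call was lost without late replicates 1 or 3 or very-late replicates 1 or 2 (differences of -0.62 to -0.46, adjusted p up to 0.0888). ITGA2, another collagen-binding integrin chain, fell by 1.75 in very-late against early tissue (adjusted p = 0.000412). Of 12 laminins and other partners of type IV collagen in basement membranes, 0 rose and 3 fell (25%): LAMC1 by 0.74, LAMA4 by 0.66 and the perlecan gene HSPG2 by 0.67 (adjusted p = 0.0444). The HSPG2 call was lost in 14 of 20 fits, in all those without 1 mid-late, late or very-late array except very-late replicates 3 and 4, and without early replicates 1 or 4 or mid replicates 1 or 3 (differences of -0.73 to -0.46, adjusted p up to 0.154). In the fit without very-late replicates 1 and 2, the calls of ITGA1 (-0.33), HSPG2 (-0.20) and LAMC1 (-0.53) were lost, and on the 13 arrays those of ITGA1 and HSPG2. LAMA3 fell by 1.57 in late against early tissue (adjusted p = 0.00034). In that comparison 1 of the 6 receptors rose (ITGA1, by 0.89) and 2 fell (ITGA2 and ITGA11). Of the 12 partners 1 rose (LAMA2) and 2 fell (LAMA1 and LAMA3). Of all named genes 4.22% were called higher and 8.07% lower there. Every stage mean of LAMA1 was at background, and the late arrays of ITGA11, at 4.03 to 4.37, lay around it. On the 13 arrays the late minus early calls of LAMA1 (-0.61, limma adjusted p = 0.0605) and LAMA2 (0.93, adjusted p = 0.11) were lost.

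Cell type markers were counted in the same comparison, in which 10.2% of all named genes were called higher and 11.2% lower. Of 13 macrophage markers, 8 rose and 0 fell in very-late against late tissue, and their summed level was 13.5 to 14.1 in very-late arrays, against 11.7 to 12.6 in late arrays. The lowest difference in that list was -1.22, for C1QA, which was not called. C1QA was at 7.71, 7.75, 9.42 and 9.33 in very-late arrays, against 9.51 to 9.94 in late arrays. Of 7 steroidogenic markers, 0 rose and 6 fell. Of 9 fibroblast markers, 0 rose and 1 fell (THY1, by 1.39), with sums of 12.6 to 13.1 in very-late arrays, against 13.1 to 13.4 in late arrays. TCF21 of that list was at background in every stage. Of 6 pericyte and smooth muscle markers, 0 rose and 3 fell (MCAM, by 1.94, TAGLN and CSPG4), with sums of 10.5 to 11.3 in very-late arrays, against 11.5 to 11.9 in late arrays. Of 12 endothelial markers, 0 rose and 3 fell (EMCN, KDR and MMRN2), with sums of 11.3 to 12.4 in very-late arrays, against 12.0 to 12.2 in late arrays. The share of endothelial markers called, 25%, was near the 21.4% of all named genes. In the fit without very-late replicates 1 and 2, 7 macrophage markers rose, 6 steroidogenic, 1 fibroblast, 2 pericyte and smooth muscle and 2 endothelial markers fell, and the endothelial marker TEK rose. That fit called 6.92% of all named genes higher and 7.65% lower. The part of these markers in the collagen and protease differences was not tested.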

How the data were processed

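Total RNA of 20 corpora lutea, 2 µg each, was labelled in 1 cycle and hybridised to Affymetrix rhesus arrays, per the labels' protocols. Per the submitters' processing notes, RMA gave the deposited log2 values; which version, chip definition or filter the authors used is not given in the sources used here. The values, 2.48 to 14.28, were used as deposited. Of 52865 probe sets, 158 controls were left out. Symbols came from the platform's annotation, which can be old: 24956 probe sets had 1 symbol, 361 several and 27390 none. Of the 24956, 340 have a gene ID missing from the current table, among them the representative probe sets of COL28A1, COL7A1 and COL6A1. Gene neighbours came from RefSeq's table (assembly T2T-MMU8v2.0).

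In R 4.3.3, limma 3.58.1 (lmFit and eBayes, no covariates) fitted the 5 stage means to all 20 arrays, with 15 residual and 2.75 prior degrees of freedom. It tested any difference between stages and 7 comparisons, two-sided, with Benjamini-Hochberg adjustment over 52707 probe sets and a threshold of 0.05. Values after ± in the text are SE unless named SD. The procedure was tested on simulated data. The number of arrays limits the precision. Array values are given for members past the F test whose stage means spread over at least 1 log2 unit, for a set of main chains whatever their result, and for examples of the lists. Members, gene lists, alternatives and the rule for named genes were chosen with earlier results of these data known. The labelled replicate numbers did not pair the arrays: over 40 same-numbered pairs, deviations from stage means correlated at -0.21 to 0.21, with 6 over 0.1. A fit on the 13 arrays with high mitochondrial signal, and the counts of the gene lists in it and without very-late replicates 1 and 2, were added after the data were seen. No genome or probe sequence was used.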

Additional observations from a re-analysis of the deposited data

Results flagged for a closer look

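In 5 of 55 groups of 4 arrays, 1 array stood apart from the other 3 by Dixon's test at the 95% level, which chance gives in about 1 of 20 groups. COL1A1 was at 10.51 in very-late replicate 3, against 9.47 to 9.64 in the other very-late arrays. COL18A1 was at 7.44 in early replicate 2, against 8.17 to 8.22 in the other early arrays. COL6A1 was at 10.79 in early replicate 1, against 9.87 to 10.00 in the other early arrays, and at 10.55 in late replicate 4, against 10.31 to 10.35 in the other late arrays. COL13A1 was at 5.00 in early replicate 2, against 4.60 to 4.63 in the other early arrays.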

How the results depend on the processing

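No call reversed. The uncalled late minus early difference of COL5A2 changed sign, to -0.2398 (adjusted p = 0.0341), with its probe sets averaged. Of the 28 calls of a collagen gene in a comparison, all 28 held with median centring. All 28 also held without probe sets whose stage means were all under 3.42, a cutoff below the background level of 4.29. Of the 28, 27 held with cyclic loess, averaged probe sets or a mitochondrial term, 26 with array weights or the replicate block, and 25 with a trended robust prior. Further, 22 held on the 8 arrays of the 2 stages, 20 on the 13 arrays, 20 without very-late replicates 1 and 2, and 18 at an adjusted p under 0.01. The replicate block, whose numbers do not pair the arrays, gave 0 called genes in mid against early, against 1 in the report, and moved no other count by over 1.5 times. The mid against early count was also 0 with a trended robust prior, at an adjusted p under 0.01, with a mitochondrial term and on 8 arrays. The mid-late against early count of 3 was 1 at an adjusted p under 0.01 and 1 on the 13 arrays. Late against early fell to 2, against 4, at an adjusted p under 0.01. Late against mid-late gave 1, against 0, with array weights, on 8 arrays and without very-late replicates 1 and 2. Without those replicates very-late against early gave 7, against 11, and very-late against late 5, against 9, with fewer arrays in the fit. Otherwise the cause was not tested. Without very-late replicates 1 and 2, 25% and 14.6% of all named genes were called in these comparisons, against 28.9% and 21.4% on all 20 arrays. Leaving out 1 array at a time, the counts ran from 10 to 13 over all stages, 0 to 1 in mid, 2 to 4 in mid-late, 2 to 5 in late and 9 to 11 in very-late against early, 0 to 0 in mid-late against mid, 0 to 1 in late against mid-late and 8 to 11 in very-late against late. On the 13 arrays mid comparisons could not be made. Signal at background limits 12 of the 35 genes, and signal around it also limits COL9A2, COL11A1 and the very-late level of COL13A1.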
